A study of Macaca mulatta with 30 samples.

Results

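The 57 genes described here encode proteins of the splicing machinery and its regulators, measured in cortical area 32 of 30 rhesus macaques. They were taken by symbol: the SRSF, HNRNP, SNRP, SF3A, SF3B and U2AF genes, together with RBFOX1 to RBFOX3, NOVA1 and PTBP1 to PTBP3. The minimum was a value of 10 normalized reads, reached in 6 libraries or more. All 57 symbols of this kind in the table of 15521 genes passed that minimum, as did 12935 genes in all. Symbols of these families that are not in the table were not analysed here.

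Area 32 is a medial prefrontal region, and each of the 30 male animals (Macaca mulatta) gave 1 library of ribosome-depleted total RNA. All animals, low drinkers included, were first induced to drink 4% ethanol over about 90 days and then had free access to it for 22 h a day over more than 12 months, so the groups hold no animals without ethanol. The labels sort them by intake. A binge drinker (BD, n = 7) took at least 2 g/kg on at least 55% of days and reached 80 mg/dl of blood ethanol at least once a year. A heavy drinker (HD, n = 7) took at least 3 g/kg on at least 20% of days. A very heavy drinker (VHD, n = 6) averaged more than 3 g/kg and exceeded 4 g/kg on at least 10% of days, and a low drinker (LD, n = 10) met none of these definitions. Cohort 4 gave 9 animals, cohort 5 and cohort 7a 8 each and cohort 7b 5, and their mean ages at the end of drinking were 9.98, 7.15, 5.70 and 7.18 years in that order.

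The libraries are also numbered, from 1 to 32, and numbers 1 to 8 are compared here with the 22 libraries numbered 9 to 32. Libraries were sequenced 4 per lane; the labels give the number no other meaning. The first 8 hold 2 VHD, 4 HD, 1 BD and 1 LD animal, of which 3 are from cohort 5, 3 from 7a, 2 from 7b and 0 from cohort 4. Depth ran from 4.39 to 13.99 M reads within exons (M, 10 to the power of 6), with a median of 7.42 M in the first 8 libraries and 9.88 M in the rest. The labels say nothing of pooling, so each library stands for 1 animal.

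Splicing removes introns in steps. The U1 particle marks the donor site, U2AF recognises the acceptor site, and the U2 particle, with its SF3A and SF3B proteins, settles on the branch point, each particle being built on a ring of Sm proteins. SR proteins mostly favour the use of an exon and hnRNP proteins often oppose it, while the RBFOX, NOVA and PTBP proteins set the exon choices typical of neurons and other tissues.

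**Figure D1:**
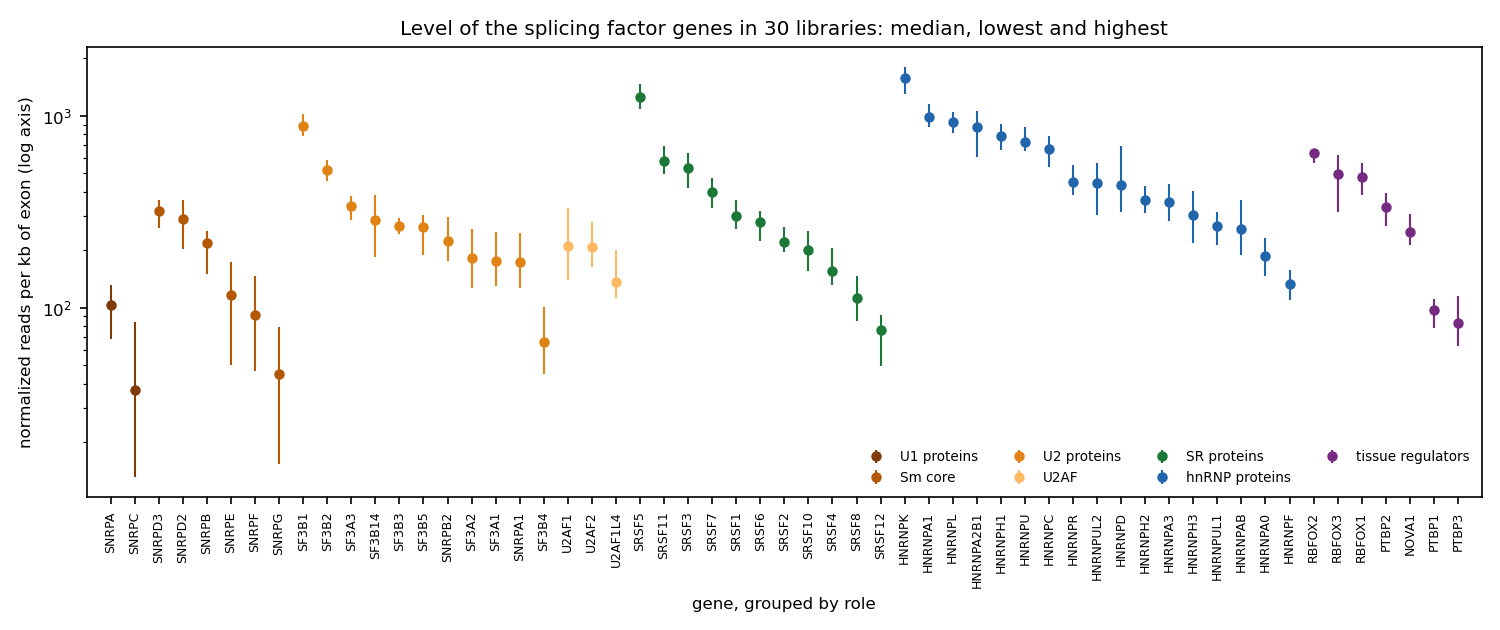
Level of each of the 57 splicing factor genes, as normalized reads per kb of exon on a log axis. Points are medians and bars run from the lowest to the highest of 30 libraries, coloured by role; HNRNPK and SRSF5 are at the top, and SNRPC and SNRPG have the lowest medians and the longest bars.

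Levels are compared between genes only as normalized reads per kb of exon, where a normalized read is a read after the authors' scaling of each library. HNRNPK, whose product binds C-rich RNA, had the highest median (1582, range 1298 to 1785 over 30 libraries). It was followed by SRSF5, an SR protein gene, at 1248 (1090 to 1463). These ranges overlap at their ends. HNRNPA1, which encodes a binder of exonic silencers, stood next at 989 (873 to 1157), and its reads may be shared with near-identical copies elsewhere in the genome.

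Among the snRNP genes, SF3B1, the largest SF3B protein and the one that clasps the branch point, had a median of 887 (788 to 1019), well above SF3B2 at 522 (459 to 590). SF3B14, an older symbol of SF3B6, had 285 (183 to 385), and SF3B4 had the lowest median of the U2 proteins, 65.9 (45.2 to 101). The Sm genes ran from SNRPD3 at 319 (259 to 364) down to SNRPG at 44.8 (15.3 to 79.1). SNRPC, the U1 protein that steadies the pairing of U1 with the donor site, had the lowest median of all 57 genes, 37.0 (13.2 to 84.1). It rests on 6 to 90 reads a library, and SNRPG on 5 to 63, so counting error is large for both.

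Of the tissue regulators, RBFOX2 had a median of 637 with a narrow range (570 to 668), and its SD on the log2 scale, 0.058, was below that of the 56 other genes. RBFOX3, better known as the neuronal nuclear marker NeuN, had 497 (315 to 623) and the neuronal RBFOX1 480 (388 to 566). PTBP2, the form found in neurons, stood at 335 (267 to 397) and PTBP1, which represses neuronal exons in other cells, at 97.1 (78.1 to 111). The ranges of PTBP2 and PTBP1 do not overlap. The widest spread belonged to SNRPC and SNRPG, with log2 SDs of 0.58 and 0.54.

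**Figure D2:**
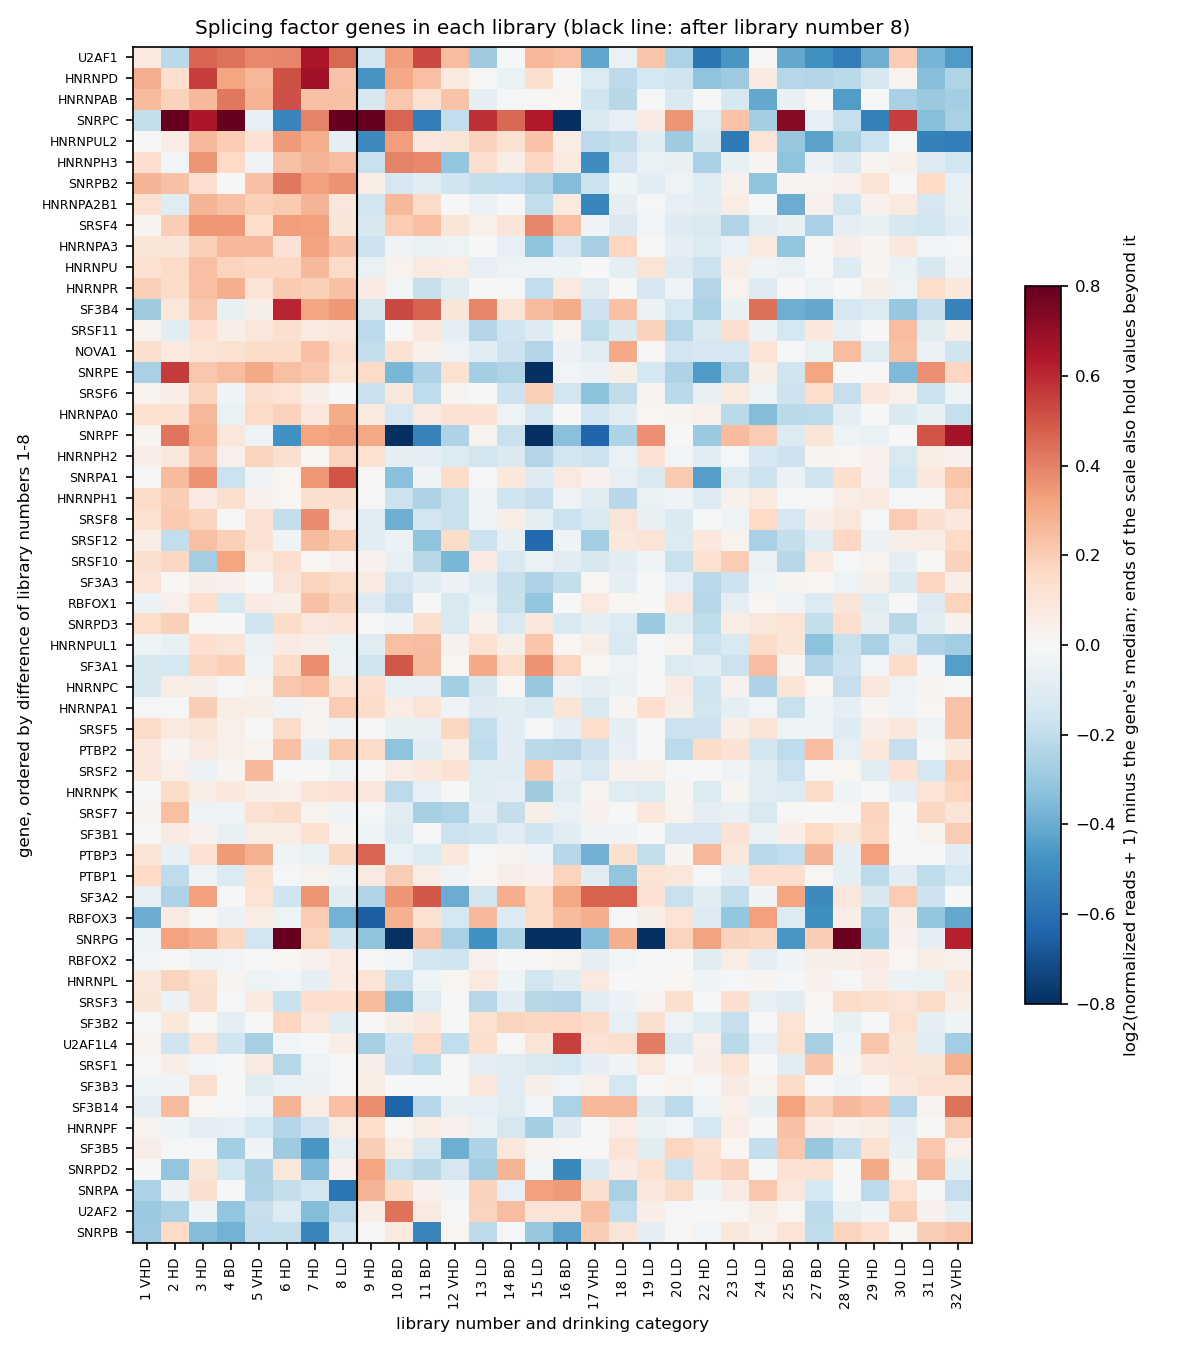
Each of the 57 genes (rows) in each of 30 libraries (columns, by library number and drinking category), as log2 of normalized reads plus 1 minus the gene's median; rows are ordered by the difference of library numbers 1-8 from the rest and the black line follows number 8. The upper rows, led by U2AF1, HNRNPD and HNRNPAB, are mostly red to the left of the line, and the bottom rows, U2AF2 and SNRPB, mostly blue.

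Together the 57 genes took 0.740% to 0.789% of the reads in libraries 1 to 8 and 0.668% to 0.757% in the rest, with medians of 0.76% and 0.71%. In a model with drinking category and cohort (limma on log2 of the value plus 1, Benjamini-Hochberg adjustment over all 12935 genes, called at an adjusted p under 0.05), 17 of 57 members differed between library numbers 1-8 and the rest, 15 higher and 2 lower. The background was 15.5% of all genes, 6.36% called higher and 9.18% called lower, against 29.8% of the members. The members' median difference was 0.10 and that of all genes 0.012. EdgeR's quasi-likelihood test called 15 of 57 members and 1700 of all 12935 genes. In tissue RNA, fewer cells of a type and less RNA per cell cannot be told apart, and this holds for every difference below.

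The hnRNP genes held 9 of the 17 calls, all of them higher (52.9% of hnRNP genes, against 15.5% of all genes). Of 17 hnRNP differences 16 were above 0, where 6764 of all 12935 genes had differences above 0. HNRNPU, which encodes a nuclear scaffold protein that also binds pre-mRNA, had 5441 normalized reads in library 1, 5557 in library 2, 5912 in library 3, 5657 in library 4, 5605 in library 5, 5618 in library 6, 5990 in library 7 and 5569 in library 8. The other 22 libraries had a lowest of 4447, a median of 4886 and a highest of 5371, so the sets do not overlap. It is the 1 member of which this is true, where 0.541% of all genes had no overlap and 0.232% were entirely higher. The limma difference was 0.24 ± 0.04 (SE, log2, n = 8 and n = 22; adjusted p = 6.66e-05).

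HNRNPD, also called AUF1, a protein that binds AU-rich RNA and governs mRNA decay, had a lowest of 1078, a median of 1210 and a highest of 1566 normalized reads in the first 8 libraries. The rest had 707, 892 and 1214, which overlaps the first set only from 1078 up. The difference was 0.54 ± 0.09 (limma, adjusted p = 0.000147). HNRNPAB, of the same family and known for binding mRNAs that travel along dendrites, had 529, 557 and 666 against 341, 444 and 547. Its difference was 0.42 ± 0.07 (limma, adjusted p = 0.000232), and 8 of 8 libraries lay above the median of the rest.

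The A and B group followed. HNRNPA3 had a lowest, median and highest of 2242, 2431 and 2629 in libraries 1 to 8 and 1678, 2052 and 2363 in the rest (0.26 ± 0.05, limma adjusted p = 0.00101). HNRNPA2B1, which carries target mRNAs to cell processes, had 3108, 3820 and 4006 against 2314, 3254 and 3973, a difference of 0.27 ± 0.06 (limma adjusted p = 0.00397) with wide overlap. HNRNPR, which associates with axonal mRNAs, had 1346, 1431 and 1524 against 1059, 1232 and 1373, and the sets meet only at their edges. Its difference was 0.23 ± 0.05 (limma adjusted p = 0.00233).

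HNRNPH3 and HNRNPH2, of the family that binds G-rich runs, differed by 0.32 ± 0.07 and 0.15 ± 0.05 (limma adjusted p = 0.00416 and 0.0398). HNRNPUL2, a relative of HNRNPU, differed by 0.33 ± 0.11 (limma adjusted p = 0.0408). The last call is the least steady: it was lost in 13 of 30 fits that left out 1 library each, and the HNRNPH2 call in 12 of 30. The other 8 hnRNP genes were not called, and HNRNPH1 among them stood at 0.15 ± 0.05 (limma adjusted p = 0.0604). They include the 3 hnRNP genes with the highest levels per kb, HNRNPK at 0.08, HNRNPA1 at 0.09 and HNRNPL at 0.02. HNRNPF was the 1 hnRNP gene with a difference below 0, −0.08 ± 0.06.

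Both subunits of U2AF were called, in opposite directions. U2AF1, the small subunit that reads the last bases of the intron, had 210, 171, 275, 269, 261, 261, 313 and 274 normalized reads in libraries 1 to 8, and a lowest of 133, a median of 173 and a highest of 288 in the rest. Library 2 sat just under the median of the rest and the other 7 above it. The difference was 0.64 ± 0.14 (limma adjusted p = 0.00284). U2AF2, the large subunit that binds the pyrimidine tract, had a lowest of 474, a median of 512 and a highest of 589 in the first 8 libraries against 522, 621 and 815. Its difference was −0.26 ± 0.07 (limma adjusted p = 0.0128), and 8 of 8 libraries lay below the median of the rest. U2AF1L4, a close relative of U2AF1, differed by −0.01 ± 0.10 and was not called.

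In the U2 particle 1 of 11 genes was called (9.09%, where 15.5% of all genes were). SNRPB2, whose protein binds a loop of U2 RNA, had 351, 417 and 469 (lowest, median, highest) in the first 8 libraries and 275, 331 and 391 in the rest, a difference of 0.28 ± 0.07 (limma adjusted p = 0.00367). SF3B1 differed by 0.06 ± 0.05 and SF3A1, of the complex that joins U2 to the branch site, by 0.10 ± 0.09, neither called. In the Sm ring 1 of 6 was called (16.7%, near the 15.5% of all genes), SNRPB, with 172, 209 and 275 against 172, 250 and 289. Its difference was −0.31 ± 0.09 (limma adjusted p = 0.0157). SNRPD2 was also below 0, at −0.18, and SNRPE, SNRPF, SNRPD3 and SNRPG were above it, at 0.19, 0.16, 0.10 and 0.03, none of these called.

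Of the U1 proteins limma called 0 of 2, with 1 at an unadjusted p under 0.05, and edgeR likewise called 0 with 1 unadjusted. SNRPC was at 0.39 ± 0.24 and SNRPA, which binds a stem of U1 RNA, at −0.20 ± 0.09 (limma adjusted p = 0.151). With log2 depth as a further term SNRPA stood at −0.28 and was called (limma adjusted p = 0.0248).

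Of the 11 SR genes 10 had differences above 0, where 6764 of all 12935 genes had. Limma called 3 of the 11 (27.3%, where 15.5% of all genes were), all higher, against 6.36% of all genes called higher. SRSF4 differed by 0.27 ± 0.08 (limma adjusted p = 0.0189), with 401, 474 and 503 against 330, 377 and 517. SRSF11, whose product acts with U2AF at the acceptor site, differed by 0.20 ± 0.05 (limma adjusted p = 0.0065), with 1530, 1719 and 1787 against 1385, 1554 and 1931. SRSF6 differed by 0.19 ± 0.05 (limma adjusted p = 0.0168). All 3 overlap with the rest, and without the cohort term SRSF11 and SRSF6 were at 0.13 and 0.13 and not called (limma adjusted p = 0.118 and 0.142). SRSF1, SRSF2, SRSF3 and SRSF7, classical SR proteins, were at −0.02, 0.08, 0.02 and 0.06.

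All 7 tissue regulators had differences above 0, where 6764 of all 12935 genes had, and 1 was called (14.3%, near the 15.5% of all genes). NOVA1, a neuronal protein that steers exon choice through clustered motifs, had 963, 999 and 1080 normalized reads against 776, 880 and 1126 (0.19 ± 0.06, limma adjusted p = 0.0331). EdgeR did not call it (adjusted p = 0.0704), and 7 of 30 fits without 1 library lost it. RBFOX1 was at 0.10 ± 0.06, RBFOX2 at 0.03 ± 0.04, RBFOX3 at 0.03 ± 0.12, PTBP1 at 0.03 ± 0.07 and PTBP2 at 0.08 ± 0.07.

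**Figure D3:**
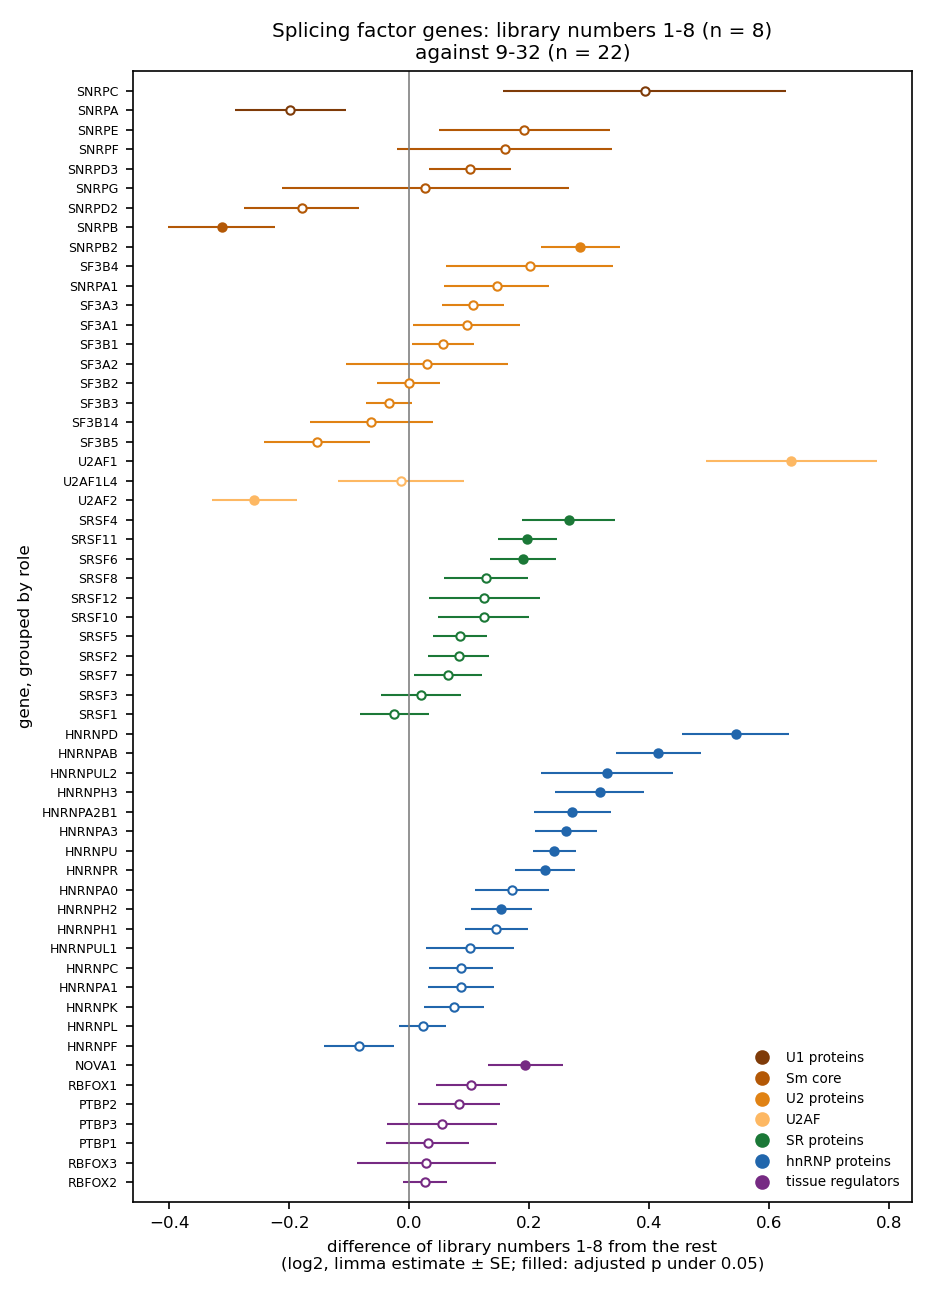
Difference of library numbers 1-8 (n = 8) from numbers 9-32 (n = 22) for the 57 genes by role, as the limma estimate on the log2 scale with SE bars; filled points have an adjusted p under 0.05. Filled points are 15 to the right of 0 and 2 to the left (U2AF2 and SNRPB), and 9 of them are hnRNP genes.

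With cohorts 5, 7a and 7b alone, the cohorts found in both sets, 17 members were called. Depth differs between the sets and was entered as a further term. With log2 depth added, 21 members were called, and HNRNPU, HNRNPD, HNRNPAB, HNRNPA3 and U2AF1 stood at 0.22, 0.39, 0.34, 0.28 and 0.38, each still called. HNRNPUL2, SRSF4 and SNRPB stood at 0.13, 0.13 and −0.21 and were not (limma adjusted p = 0.188, 0.0657 and 0.0597). The share of all genes called was not taken in either fit, so the counts of 17 and 21 have no background beside them.

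Depth itself went with the members' levels in the model that also holds category, cohort and library set, a reading added after the data were seen. Per doubling of depth, limma called 21 of 57 members, 11 higher and 10 lower, where 24.3% of all genes were called, 12.6% higher and 11.8% lower. U2AF1 fell by 0.53 ± 0.08, SF3B4 by 0.47 ± 0.09, HNRNPUL2 by 0.41 ± 0.06 and RBFOX3 by 0.33 ± 0.08 per doubling. SNRPF rose by 0.49 ± 0.13, SF3B14 by 0.23 ± 0.08 and SRSF1 by 0.18 ± 0.04. HNRNPU, with the smallest adjusted p between library sets, was not among the 21.

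Cell type markers in the first 8 libraries and the rest were set side by side. The 5 excitatory neuron markers in the table summed to 24530 to 31208 normalized reads against 23035 to 33087, with CAMK2A called lower although the median difference of the 5 was 0.26, and 6 of 6 inhibitory ones to 4661 to 6226 against 4628 to 6185. The 6 astrocyte markers summed to 78171 to 100243 against 77219 to 102900, with ALDH1L1 called lower, and the 6 oligodendrocyte ones to 3831 to 7972 against 3224 to 18645. Microglia (6 of 6 genes) summed to 858 to 1154 against 960 to 1488, with C1QB and CSF1R called lower. Precursors (3 of 4 genes) summed to 1299 to 1751 against 1214 to 1801, and endothelium (4 of 5) to 1053 to 1375 against 894 to 1818. Mural and fibroblast genes (6 of 6) summed to 2384 to 4401 against 2664 to 5960, with COL1A2 called lower. Median differences of the other lists were −0.036 (inhibitory), −0.053 (astrocyte), 0.25 (oligodendrocyte), −0.20 (microglia), 0.095 (precursor), −0.27 (endothelium) and −0.20 (mural and fibroblast). No marker in the table was at 0 in all libraries, and the part of the markers in the members' differences was not tested.

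Other genes of the spliceosome, 121 tested from a list of its further subunits and regulators, were set in the same comparison. Limma called 31 of them (25.6%, against 15.5% of all genes), 25 higher and 6 lower. EdgeR called 21 of the 121, where it called 1700 of all 12935 genes. Their median difference was 0.077, with 83 above 0 and 38 below, where 6764 of all 12935 genes were above 0. SRRM1, a coactivator rich in serine and arginine repeats, was 0.43 ± 0.08 higher, TARDBP, which encodes TDP-43, 0.33 ± 0.07 and TIAL1, which binds U-rich introns, 0.28 ± 0.06. PRPF31, of the U4/U6 particle, was at −0.32 ± 0.09, PUF60, which works beside U2AF at the acceptor site, at −0.21 ± 0.06 and PRPF19, which activates the spliceosome, at −0.17 ± 0.05.

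By drinking category no member passed the test. VHD, HD and BD were each compared with the same LD animals, so their differences share them and are not compared with each other. For VHD against LD limma called 0 of 57 members and 0% of all genes, with 1 member and 3.5% of genes at an unadjusted p under 0.05. EdgeR called 0, with 1 unadjusted. The members' median difference was 0.027, with 36 of 57 above 0, and that of all genes −0.00033, with 6452 of 12935 above 0. The members' median was 0.015, 0.0084 and 0.018 without libraries 1, 5 or 32, and 0.041 and 0.044 without 12 or 17. With library numbers 1-8 as a term the median was 0.0044 with 30 above 0.

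The 1 member at an unadjusted p under 0.05 was SNRPC. It had 26.4, 28.8, 26.3, 27.9, 26.5 and 25.2 normalized reads in the 6 VHD libraries and a lowest of 23.7, a median of 37.3 and a highest of 65.2 in LD. The VHD values lie close together within the lower part of the LD range. The limma difference was −1.01 ± 0.33 (adjusted p = 0.948), but −0.45 without the cohort term and −0.21 within cohort 7a, the 1 cohort that holds both categories. SNRPA was at −0.24 ± 0.13, SRSF2 at 0.14 ± 0.07 and SF3B1 at 0.10 ± 0.07, none called.

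For HD against LD limma called 0 of 57 members and 0% of genes, with 6 members and 12.5% of genes at an unadjusted p under 0.05, all 6 higher. EdgeR called 0, with 5 unadjusted. The members' median was 0.060 with 42 of 57 above 0, 0.025 without library 7 and 0.090 without library 22. Over all genes the median was 0.0027, with 6531 of 12935 above 0. The 6 were HNRNPAB, SNRPB2, HNRNPC, PTBP2, HNRNPA0 and HNRNPA2B1, at 0.32 ± 0.12, 0.25 ± 0.10, 0.16 ± 0.06, 0.19 ± 0.08, 0.18 ± 0.08 and 0.19 ± 0.09. HNRNPC binds U-rich introns, and HNRNPA0 is a single-exon member of the A and B group.

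The 4 HD libraries among the first 8 differed from the 3 later ones for some of these genes. HNRNPAB had 529, 558, 666 and 548 normalized reads in the 4 HD libraries numbered 1 to 8, but 426, 465 and 466 in the 3 later ones. LD had a lowest of 350, a median of 428 and a highest of 549, the last in its 1 library among the first 8. With library numbers as a term HNRNPAB stood at 0.13, SNRPB2 at 0.12 and HNRNPA2B1 at 0.07. Over the 57 genes the median was then −0.0026, with 26 above 0 and 0 at an unadjusted p under 0.05.

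PTBP2 did not show that division. It had 1185, 1227, 1370 and 1109 in the early HD libraries and 1295, 1291 and 1236 in the later ones, against a lowest of 1005, a median of 1084 and a highest of 1348 in LD. Among library numbers above 8, with 3 HD and 9 LD animals, its difference was 0.24 (limma unadjusted p = 0.0338), with 0 members called after adjustment. In that fit 3 of 57 members and 1000 of 12935 genes were at an unadjusted p under 0.05, so the members did not exceed the background. All 3 were tissue regulators. The median of the 7 tissue regulators was then −0.049 with 2 above 0, so the 3 did not all rise. The ranges of HD and LD overlap.

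**Figure D4:**
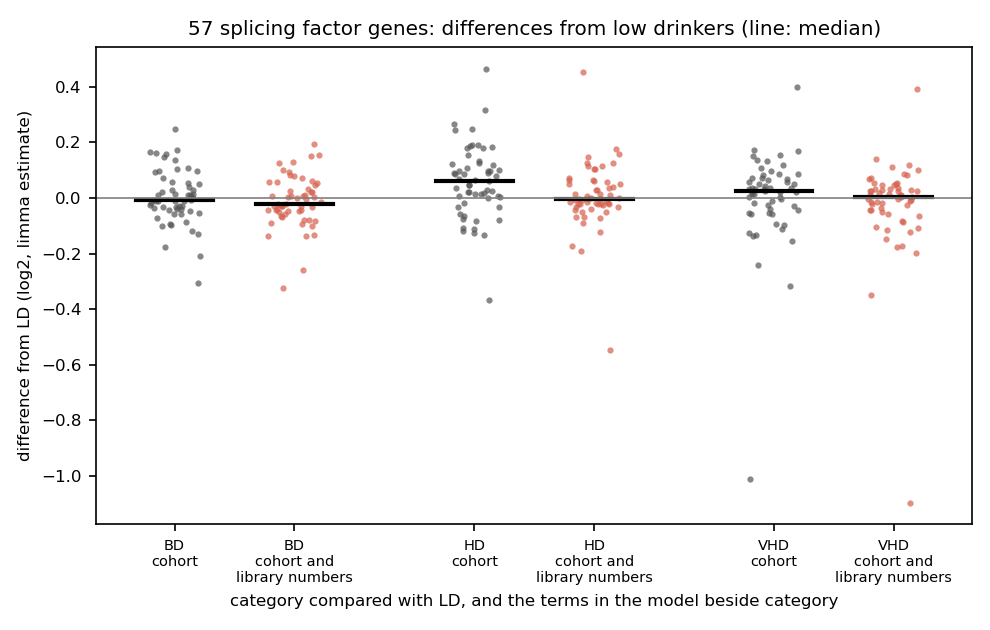
Differences of the 57 genes from LD (log2, limma estimates; points are genes and lines medians) for BD, HD and VHD, in the model with cohort (grey) and with cohort and library numbers 1-8 (red). The HD median drops from 0.060 to −0.0026 when library numbers enter, and SNRPC is the lowest point for VHD in both.

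For BD against LD limma called 0 members and 0% of genes, with 1 member and 3.05% of genes at an unadjusted p under 0.05. EdgeR called 0, with 1 unadjusted. The 1 was HNRNPAB at 0.25 ± 0.11, with 447, 470 and 625 (lowest, median, highest) in BD, overlapping LD. The members' median was −0.0085, with 27 of 57 above 0, where 6470 of all 12935 genes were. The members' median turned above 0 without library 8, 14, 19 or 25 (0.0083, 0.019, 0.0028 and 0.0042). SRSF3, the smallest SR protein, was at −0.13 ± 0.07 and SRSF4 at 0.16 ± 0.10.

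Over all 4 categories limma called 0 members and 0% of genes, with 4 members and 5.62% of genes at an unadjusted p under 0.05 (HNRNPC, SNRPC, HNRNPAB and SNRPB2). EdgeR called 0, with 3 unadjusted. Along a trend from LD through BD and HD to VHD, scored as equal steps, limma called 0 members and 0% of genes, with 1 member and 6.18% of genes unadjusted. EdgeR called 0, with 1 unadjusted. That gene was SNRPC, at −0.30 ± 0.10 per step (limma adjusted p = 0.745), and PTBP2 was at 0.05 ± 0.03. Of the 121 further spliceosome genes, 0 were called along the trend by limma and by edgeR, each with 6 unadjusted, and SAP18, LSM5 and MAGOH (0.09, 0.15 and 0.11 per step) and DHX38, RBM10 and PRPF8 (−0.07, −0.08 and −0.04) had the smallest p in each direction.

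For any difference between cohorts limma called 0 members and 0% of genes, with 1 member (SNRPC) and 8.04% of genes at an unadjusted p under 0.05. EdgeR called 0, with 3 unadjusted. For cohort 4, the oldest, against cohort 7a, the youngest, limma called 0 members and 0% of genes, with 1 member and 9.15% of genes unadjusted, and edgeR called 0 with 1. The 1 was SRSF11, with a lowest of 1516, a median of 1729 and a highest of 1931 normalized reads in cohort 4 (n = 9) and 1385, 1567 and 1730 in cohort 7a (n = 8). The limma difference was 0.15 ± 0.07 (adjusted p = 0.491), and 0.21 with library numbers as a term. Cohort 4 holds no library below number 9.

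The exon table allowed a second measure, the share of a gene's reads that falls on each exon. Of 524 exons in the members 464 could be tested, in 51 genes (a value of 20 or more in 6 or more libraries, with 2 or more such exons in the gene). SNRPG, SNRPC, HNRNPA0, HNRNPF, SF3B5 and SRSF8 had none. The measure is relative, so an exon that gains share lowers the share of the others. Exons are numbered here along the chromosome, whatever the strand, and positions are those of the exon names in the table, whose genome build is not given in the sources used here.

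Between library numbers 1-8 and the rest limma called 57 of 464 member exons (12.3%), in 27 genes, 31 higher and 26 lower. The background was 6.38% of 81339 exons, 3.07% higher and 3.31% lower. In SF3B1, exon 26 of 26 (chromosome 2b, 84917787 to 84917862) held 0.83% to 1.29% of the gene's reads in the first 8 libraries, with a median of 1.04%, and 0.0621% to 0.409% in the rest, with a median of 0.223%. The sets do not overlap, and the difference was 2.08 ± 0.27 (limma, log2, adjusted p = 9.32e-06). This exon reached the minimum of 20 only in libraries 1 to 8, so it was tested only through the set where it is high. Its difference and lack of overlap are partly set by that filter. Exon 25 of SF3B1 differed the same way, by 1.05 ± 0.20, at medians of 3.86% and 1.40%.

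HNRNPH1 had the largest difference, 2.55 ± 0.34 (limma adjusted p = 1.21e-05), in exon 13 of 13 (chromosome 5, 177935970 to 177936055). That exon held 0.916% to 1.89% of its reads in the first 8 libraries and 0% to 0.442% in the rest, without overlap. It averages 11.2 normalized reads, so each share rests on few reads. It reached the minimum of 20 only in libraries 1 to 8, so it was tested only through the set where it is high. Its difference and lack of overlap are partly set by that filter. HNRNPH1 and HNRNPH2 are similar in sequence, and how reads that match both were treated is not stated.

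In HNRNPA3 exon 1 of 10 (chromosome 2b, 64156162 to 64156339) had medians of 1.25% and 0.447%, a difference of 1.68 ± 0.29 (limma adjusted p = 0.000442), and its sets do not overlap. This exon too reached the minimum of 20 only in libraries 1 to 8, so the same limit holds. In HNRNPA1 exon 1 of 10 (chromosome 12, 52467330 to 52467448) held 4.71% to 5.50% against 1.63% to 4.64%, and in HNRNPH2 exon 1 of 2 held 6.63% to 10.2% against 1.54% to 7.79%. These 4 genes and SF3B1 share the place of the exon, at an end of the gene.

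Ends were therefore counted over all members, a description added after the exon values were seen. Of the exons at both ends of a gene, the shorter one was called higher in 7 of 32 members tested (21.9%) and lower in 0. Over all genes the shorter end exon was called higher in 14.1% and lower in 3.58% of 3989. The longer end exon was called higher in 2 and lower in 2 of 49 members, and inner exons in 22 and 24 of 383. The 7 members are the 5 above with SNRPD3 and SNRPA, at 0.69 ± 0.21 and 0.59 ± 0.18. The end exons of SF3B1, HNRNPH1 and HNRNPA3 reached the minimum only in libraries 1 to 8 and so could enter only by being high there. The count of higher calls is thus partly set by the filter, which was also used for all genes.

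**Figure D5:**
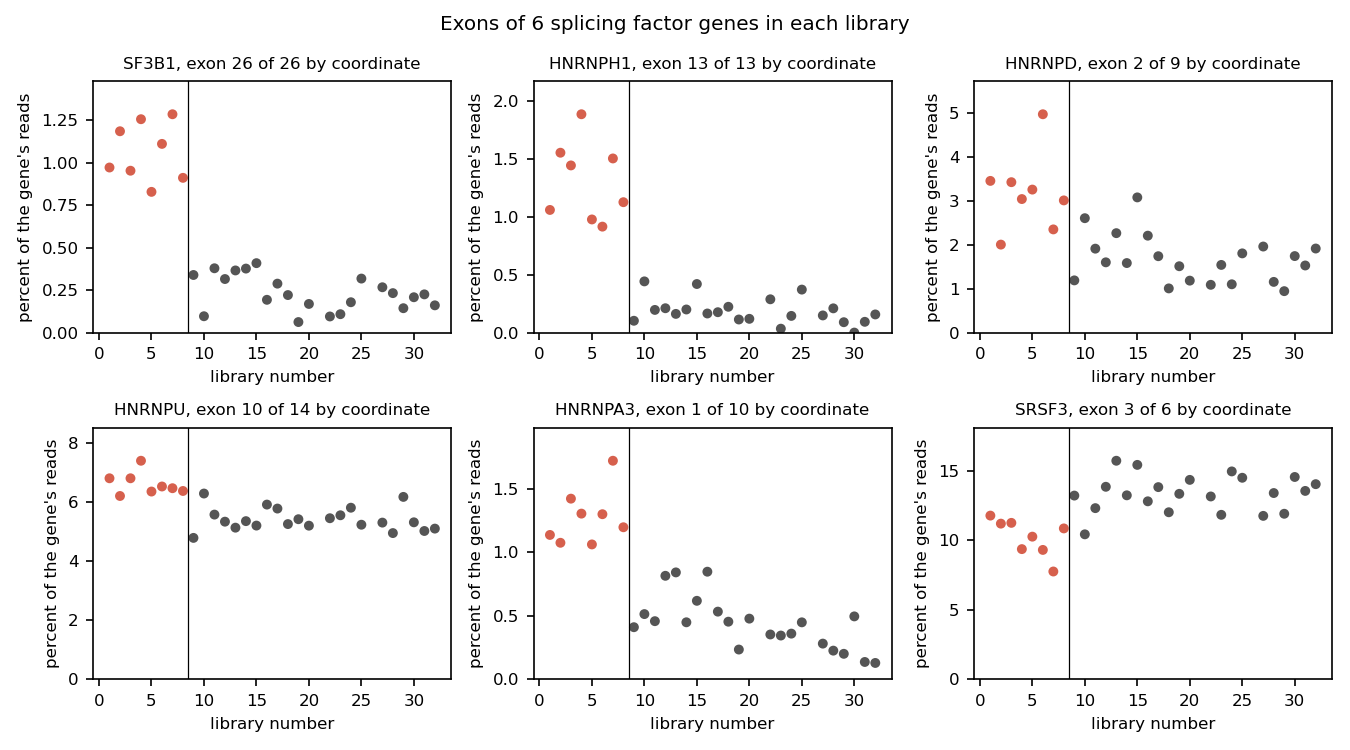
Share of the gene's reads on 1 exon of each of 6 splicing factor genes (percent), against library number; red points are numbers 1-8 and grey points the rest. The exons of SF3B1, HNRNPH1 and HNRNPA3 at an end of the gene are higher in all 8 red points, and the inner exon of SRSF3 is lower in most of them. The end exons of SF3B1, HNRNPH1 and HNRNPA3 reached the minimum of 20 normalized reads only in libraries 1-8, so they were tested only through that set. The HNRNPD exon reached it in fewer than 6 of the later libraries, so it too was tested only through libraries 1-8.

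Inner exons were called in both directions. HNRNPD exon 2 of 9 (chromosome 4, 51934449 to 51934505) held 2.01% to 4.98% of reads in the first 8 libraries and 0.945% to 3.08% in the rest (1.17 ± 0.19, limma adjusted p = 0.000168). Fewer than 6 of the later libraries reached the minimum of 20 for this exon. It was therefore tested only through the set where it is high, and its difference is partly set by that filter. HNRNPU exon 10 of 14 (chromosome 1, 220802797 to 220802896) held 6.19% to 7.39% against 4.78% to 6.28% (0.35 ± 0.06, limma adjusted p = 0.000172), and 5 of 14 HNRNPU exons were called. Both genes were called in level as well.

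HNRNPL, whose protein binds CA repeats, had 6 of 12 tested exons called, 3 in each direction, and HNRNPK 5 of 15. Neither gene was called in level. In SRSF3 exon 3 of 6 (chromosome 6, 37423076 to 37423210) held 7.75% to 11.8% of reads against 10.4% to 15.7%, a difference of −0.43 ± 0.08 (limma adjusted p = 0.000519). SF3A3 exon 8 of 17 was lower too, at medians of 3.14% and 5.07% (−0.82 ± 0.15, limma adjusted p = 0.000666). For both exons the 2 library sets overlap in part.

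Other called exons included 4 of 6 tested in SNRPB, 2 in each direction, and 4 of 20 in SF3B2. Among the tissue regulators, RBFOX3 had 3 of 12 called (exons 7 and 8 higher by 0.44 ± 0.09 and 0.49 ± 0.10, exon 1 at −0.25 ± 0.07), RBFOX2 had 2 of 12 (both lower) and RBFOX1 1 of 12, exon 9 of 13 at −0.73 ± 0.20. U2AF1 exon 7 of 8 was at −0.50 ± 0.15, with 8.07% to 14.4% of reads against 8.77% to 19.8%.

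For VHD against LD, the trend and cohort 4 against 7a, the test of relative exon use called no member exon, while diffSplice called 3. Exon use was not tested for HD or BD against LD, for any category or for any cohort. For VHD against LD limma called 0 of 464 and 0% of all exons, with 13 and 3.67% at an unadjusted p under 0.05. Along the trend it called 0 and 0%, with 25 and 4.76% unadjusted, and for cohort 4 against 7a 0 and 0%, with 27 and 5.16%. With diffSplice, which pools the spread within a gene, the counts were 0, 1 and 2. The share of all exons called by diffSplice was not taken, so these counts have no background beside them. The 1 along the trend was RBFOX2 exon 9 of 13 (−0.25 per step, diffSplice adjusted p = 0.0486). It held 1.40% to 2.90% of the gene's reads in LD, 1.14% to 2.56% in BD, 1.04% to 3.16% in HD and 1.37% to 3.11% in VHD. These ranges overlap and do not fall evenly by step. The medians were 1.49% in BD and 1.48% in HD, and VHD libraries 12 and 32 had 3.11% and 2.63%. The 2 between cohorts were the exons of SF3B1 and HNRNPH1 at an end of the gene (−1.03 and −1.49, adjusted p = 2.07e-05 and 6.12e-07 in limma), the same exons that differ between library sets, and cohort 4 has no library among the first 8. Both exons reached the minimum of 20 normalized reads only in libraries 1 to 8. The smallest p for VHD and along the trend were in HNRNPU exon 2 (−0.27 ± 0.09 for VHD) and in SNRPA exon 4 (−0.62 ± 0.22 for VHD, −0.24 ± 0.07 per step), and for cohorts in exons 1 and 2 of SNRPD2 (0.30 ± 0.08 and −0.27 ± 0.09).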

How the data were processed

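The members, gene lists and the split of library numbers were chosen with earlier results of these data known. The values are a normalized signal in which the authors scaled each library to a common upper quartile, deposited as 1 table of genes and 1 of exons. The submitters' processing notes list STAR 2.3.0e, CASAVA, FastQC and edgeR. Build, annotation and strand setting: not given in the sources used here. Dividing by the smallest step returned whole reads (100% of gene values within 0.01), whose sums are the depths.

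Log2 of the value plus 1 was tested with limma 3.58.1 in R 4.3.3 (lmFit, eBayes with a mean trend) on all 30 libraries, with category and cohort as terms and Benjamini-Hochberg at 0.05. For exons the log2 ratio of an exon to the rest of its gene was tested. EdgeR 4.0.16 was run on recovered reads of 29 libraries, without library 14, whose step is close to 1 (0.998). Methods were tested on simulated data.

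Named are called members, the 5 smallest p per direction, 23 genes fixed by symbol, called exons and the 3 exons of smallest p; others were named after their values were seen, to complete a count or an order. The alternatives were other pseudocounts, minimums and scaling, edgeR, array weights, a depth term, library numbers as a term, fewer terms or cohorts, diffSplice, and each library left out. Leaving out numbers 1-8 and a depth term for exons were added after the data were seen. Figures were drawn with matplotlib 3.10.9.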

Additional observations from a re-analysis of the deposited data

Results flagged for a closer look

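In 128 groups of 4 to 10 libraries, 8 had 1 library far from the others by Dixon's criterion, which chance alone meets in about 1 in 20 groups. The groups were named members by category, by cohort and in library numbers 1-8, and no cohort group was among the 8. SRSF12, an SR protein gene, was at 215.7 normalized reads in VHD library 17, below the other VHD libraries at 272.5 to 293.4. SF3B3 was at 1645 in LD library 18 (others 1798 to 1962), and at 2009 in BD library 25 (others 1711 to 1818). LD library 15 was low for SNRPF, at 37.2 (others 60.9 to 103.2), and for HNRNPF, at 283.4 (others 326.4 to 357.8). In BD, HNRNPA2B1 was at 2521 in library 25 (others 3325 to 3973), and HNRNPUL1, a relative of HNRNPU, at 853 in library 27 (others 1081 to 1269). NOVA1 was at 1080 in library 7, above the others of numbers 1-8 at 963 to 1011.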

How the results depend on the processing

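The 0 calls by category and cohort held in each alternative run on genes. The 17 calls between library sets ran from 13 to 18 with 1 library left out, and from 15 to 21 over the other settings. Apart from edgeR, the share of all genes called was not taken in these alternatives. NOVA1 and HNRNPH2 were not called by edgeR (adjusted p = 0.0704 and 0.0674), HNRNPUL2 without a filter (0.0544). SRSF4 was lost in 2 and SNRPB in 1 of 30 fits without 1 library. U2AF2 in HD turned from −0.11 to 0.0058 with library numbers as a term. With diffSplice, 1 member exon was called along the trend, 2 between cohorts and 34 between library sets, 27 of them among the 57. Its share over all exons was not taken. The 57 were 38 (without library 22) to 62 with 1 library left out. Counts at an unadjusted p under 0.05 moved: with array weights to 2 (VHD), 7 (BD), 10 (any category), 6 (trend) and 5 (any cohort); with library numbers as a term to 0 (HD), 1 (any category), 5 (any cohort) and 4 (cohort 4 against 7a); above number 8 to 3 (HD), 2, 4 and 3; without the category term to 5 and 4 for cohorts. Without the cohort term BD gave 2, within cohort 7a VHD gave 0, a depth term gave 2 for the trend, and for any cohort no filter, median-of-ratios scaling and edgeR gave 0, 2 and 3. A minimum of 100 left 0 for VHD, trend and any cohort, since SNRPC drops out. Leaving out 1 library gave 3 to 13 for HD (without libraries 6 and 22), 0 to 5 for BD (10 and 27) 1 to 4 for VHD (28 highest), 1 to 5 for any category, 1 to 3 for the trend, and 0 to 3 and 0 to 4 for cohorts; medians ran from 0.025 to 0.090 for HD, 0.0084 to 0.044 for VHD and −0.022 to 0.019 for BD. No paired analysis was possible because each animal gave 1 library, in 1 category. SNRPC and SNRPG, with as few as 6 and 5 reads, are limited by depth.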
